A study of Mus musculus with 6 samples.

Results

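The genes described here encode the aminoacyl-tRNA synthetases, the enzymes that attach each amino acid to its transfer RNA before the ribosome uses it. Members were taken by name from a fixed list of 36 cytosolic and mitochondrial synthetase genes, of which 35 were analysed among the 46963 gene names of the count table, and Mars2 was not analysed here. By the compartment of the enzyme, 20 members are cytosolic and 15 are mitochondrial, and all 35 had enough reads to be tested. The RNA was from CD43- splenic B-cells. The mice were *wt* or lacked 1 of 2 enhancer regions (Eμ-deficient or 3′RR-deficient). Cells had no LPS (resting) or were cultured with 5 μg/ml LPS. LPS is a bacterial component that drives B-cells to divide and to become antibody-secreting cells. The labels give 2 days of culture to each group.

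There was 1 library for each genotype and state, 6 in all, each from cells of 2 pooled mice. The mice of all 3 genotypes were of the 129 background, of both sexes and 8 to 12 weeks old. The Eμ-deficient mice lack the Eμ enhancer of the immunoglobulin heavy chain locus with its flanking matrix attachment regions, and the 3′RR-deficient mice lack the 3′ regulatory region of the same locus. Both are germline deletions, so every cell carries them. The labels do not say whether the resting and LPS libraries of a genotype came from the same mice. Which day the resting cells were taken is given differently by the labels and by the study's methods, which place them before stimulation. By the methods' account, changes with LPS cannot be told apart from changes with culture.

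Most amino acids are charged in 2 places with separate genes, and mitochondrial synthetases, mostly named with a final 2, are made in the cytosol and imported. A few genes serve both compartments, such as Gars and Kars, whose transcripts also give the mitochondrial enzyme, and these were counted as cytosolic. Several cytosolic synthetases sit in a large multisynthetase complex held by the scaffold proteins Aimp1, Aimp2 and Eef1e1. In many cells the cytosolic set is under the transcription factor Atf4, which is translated when amino acids run short or the endoplasmic reticulum is stressed and which binds composite C/EBP-ATF elements.

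Promoters are shown because the cytosolic genes moved together with LPS. RefSeq gives a promoter (250 bases before to 50 after the transcription start, GRCm38.p6) for 26 of the 35 members, 13 of each compartment. The core of the C/EBP-ATF element (TGATGNAA, searched on both strands) was found in 5 of the 13 cytosolic promoters (38.5%), in 0 of the 13 mitochondrial ones and in 3.97% of all 32851 promoters. The 5 genes were Aars, Gars, Iars, Tars and Yars, which charge alanine, glycine, isoleucine, threonine and tyrosine. The stretches that follow hold the match in capitals, written 5′ to 3′ on the gene's strand, and those that pass the transcription start are limited to 30 bases.
Aars, chr8:111033690-111033777, plus strand: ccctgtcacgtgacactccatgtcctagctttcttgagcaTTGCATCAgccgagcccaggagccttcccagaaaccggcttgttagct
Aars, chr8:111033840-111033869, plus strand: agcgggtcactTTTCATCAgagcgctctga
Gars, chr6:55037931-55038000, plus strand: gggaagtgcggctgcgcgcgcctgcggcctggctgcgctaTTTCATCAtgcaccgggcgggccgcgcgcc
Tars, chr15:11399659-11399713, minus strand: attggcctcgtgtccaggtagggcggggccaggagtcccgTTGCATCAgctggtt
Iars, chr13:49682126-49682155, plus strand: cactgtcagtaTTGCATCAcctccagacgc
Yars, chr4:129189895-129189924, plus strand: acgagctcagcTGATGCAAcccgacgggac

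Aars held 2 matches, with first bases at -112 and 9 counted from the transcription start. The match of Gars began at -30 and that of Tars at -15. The E-box CACGTG, the site of the Myc family, was in 4 of 13 cytosolic promoters (Aars, Farsb, Iars and Tars), in 1 of 13 mitochondrial promoters (Ears2) and in 7.15% of all promoters. No E-box in these promoters overlapped a core match. A match of letters is a description and not a measured binding site.

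Gene counts ranged from 9111974 to 21998587 per library, and counts of single members from 42 for Pars2 in the resting Eμ-deficient library to 8191 for Lars2 in the *wt* LPS library. Libraries differed in ways that the groups do not name. The log2 ratios of 35 spike-in RNAs had an SD of 0.784 between *wt* LPS and *wt* resting, 0.135 between the Eμ-deficient libraries, 0.633 between the 3′RR-deficient ones and 1.27 between 3′RR-deficient LPS and *wt* LPS. In the last pair the log2 ratio of genes followed transcript GC content (Spearman's rho across 14363 genes 0.557), from a median of -0.85 over the 10% of genes lowest in GC content to 0.80 over the 10% highest in it. Between *wt* LPS and *wt* resting the trend ran the other way (rho -0.262). Values with the GC trend removed are therefore given beside those it moved. B-cell markers were present in every library, their summed level being 2960 to 3860 CPM (counts per 1000000 of the library, after scaling) at rest and 1870 to 2220 after LPS. Of 9 tested, 4 fell with LPS (6 with the GC trend removed) and 0 rose, with a median log2 fold change of -0.71. Of all genes tested, 21.1% were called lower and 19.7% higher. Of the markers of other cells, 6 of 8 tested for T-cells, 8 of 8 for myeloid cells and 6 of 7 for erythroid cells fell with LPS, while the other one, Tfrc, the transferrin receptor that dividing cells also carry, rose (1.46 ± 0.36, adjusted p 0.011). Their summed levels went, for T-cells from 27.7–47.2 to 5.45–17.2 CPM, for myeloid cells from 164–393 to 25.6–39.5 and for erythroid cells from 3410–20200 to 308–843. Of these markers Elane was at 0 in all 3 LPS libraries, Cd8a in the *wt* and 3′RR-deficient ones, and Cd3e, Thy1, S100a9 and Mpo in the *wt* one. Of 7 plasma cell markers tested, 3 rose with LPS (Prdm1 by 3.04 ± 0.34, Mzb1 by 2.14 ± 0.25 and Xbp1 by 1.86 ± 0.25) and 0 fell. The plasma cell markers summed to 598–2330 CPM at rest and 820–1990 after LPS, with the Eμ-deficient library highest in both states. Jchain made up 1730 CPM of the resting Eμ-deficient sum. In bulk RNA fewer cells of a type and less RNA per cell cannot be told apart, and the part of these markers in the results was not tested.

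The first comparison asked how the synthetase genes changed from resting to LPS. After LPS 18 of the 20 cytosolic members and 5 of the 15 mitochondrial members rose, and 0 members fell. Across all 14600 genes tested, 19.7% were called higher and 21.1% lower, so that 48.4% of all calls were higher, or 33.4% with spike-in scaling. The median log2 fold change was 1.29 for cytosolic members, 0.24 for mitochondrial members and -0.07 for all genes. Summed over the cytosolic members, CPM was 788 to 1000 in resting libraries and 1800 to 2420 in LPS libraries. Summed over the mitochondrial members, it was 319 to 414 and 587 to 767, of which Lars2 made up the greater part after LPS, since without it the sums were 186 to 198 and 204 to 262. The test was edgeR's quasi-likelihood test on all 6 libraries with genotype as a block, at an adjusted p of 0.05 over all genes. Its error is the departure of the 3 genotypes' LPS changes from one another, not the spread between mice. Fewer calls were made with spike-in scaling (9 cytosolic, 0 mitochondrial), without the resting Eμ-deficient library (11 and 1), without the Eμ-deficient LPS library (13 and 1) and without both (13 and 1). Mitochondrial calls also dropped to 1 without either 3′RR-deficient library. A genotype left with 1 library adds nothing to the fitted LPS change under the genotype block. Leaving out either or both of its libraries is therefore nearly the same check. Calls over all genes, higher and lower together, also dropped from 5962 of 14600. They numbered 4354 of 14600 with spike-in scaling and 3960 of 14132 without both Eμ-deficient libraries. With the GC trend removed 19 cytosolic and 6 mitochondrial members were called higher and 1 mitochondrial member lower, beside 24.8% and 25.5% of all genes.

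**Figure D1:**
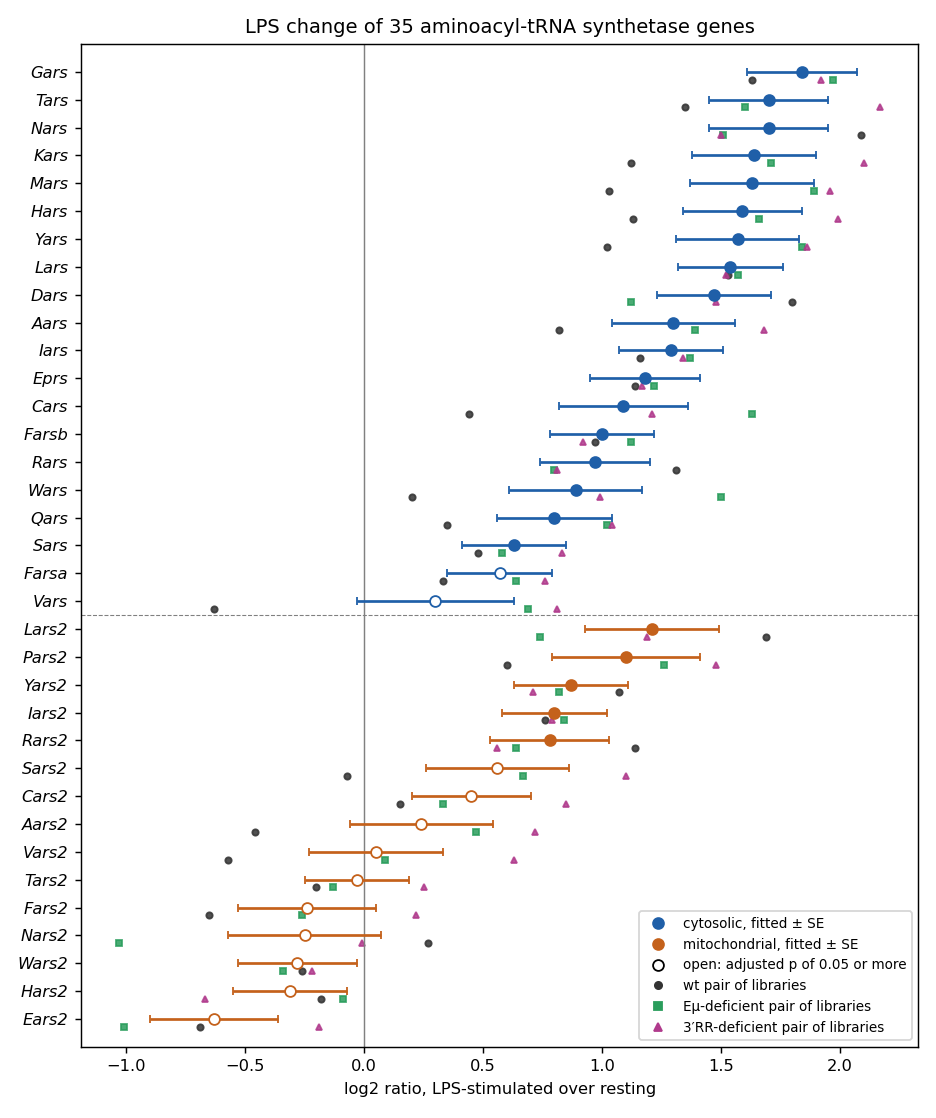
Log2 ratio of LPS-stimulated over resting cells for 35 synthetase genes, cytosolic above the dashed line and mitochondrial below. Large points are the fitted log2 fold change with its SE, open where the adjusted p was 0.05 or more, and small symbols are the ratio in the pair of libraries of each genotype. Cytosolic genes run from 1.84 (Gars) to 0.30 (Vars) and mitochondrial genes from 1.21 (Lars2) to -0.63 (Ears2).

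The 6 cytosolic members with the greatest fitted change charge glycine, threonine, asparagine, lysine, methionine and histidine. Gars (chromosome 6, 55038007 to 55079500, GRCm38) was at 30.1, 24.3 and 29.3 CPM in resting *wt*, Eμ-deficient and 3′RR-deficient cells and at 93.3, 95.2 and 111 CPM after LPS. Its log2 fold change was 1.84 ± 0.23 (SE), adjusted p 0.000419. Every LPS library lay above every resting one, by similar steps in each genotype. Tars, for threonine (chromosome 15, 11382301 to 11399665), was at 27.0, 22.6 and 24.1 CPM at rest and at 68.5, 68.7 and 108 CPM after LPS, the 3′RR-deficient LPS library standing highest. Its log2 fold change was 1.70 ± 0.25, adjusted p 0.000918. Nars, for asparagine, went from 43.5, 58.3 and 56.8 CPM to 185, 166 and 161 CPM, again with no overlap, and here the *wt* pair had the steepest step. Its log2 fold change was 1.70 ± 0.25, adjusted p 0.000958. Kars, for lysine, was at 39.8, 28.0 and 35.8 CPM at rest and 86.2, 91.8 and 154 CPM after LPS, with a log2 fold change of 1.64 ± 0.26 and an adjusted p of 0.00145. As with Tars the groups did not overlap and the 3′RR-deficient LPS library stood above the other two. Mars, the methionyl-tRNA synthetase that also charges the initiator tRNA, was at 29.5, 18.6 and 27.5 CPM and then 60.1, 69.2 and 107 CPM, with a log2 fold change of 1.63 ± 0.26 and an adjusted p of 0.00154. Hars, for histidine, was at 26.9, 17.9 and 22.2 CPM and then 59.0, 56.4 and 88.0 CPM, with a log2 fold change of 1.59 ± 0.25 and an adjusted p of 0.00131. In Mars and Hars too the 3 LPS libraries were all above the 3 resting ones. Over the alternatives tried, the adjusted p of these 6 genes reached at most 0.0126.

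The other 12 cytosolic members that rose ran from 1.57 for Yars to 0.63 for Sars. Sars, the seryl enzyme, was nearest the threshold at an adjusted p of 0.0488, and it passed it neither with total count scaling (0.107) nor with spike-in scaling (0.509), nor under another filter on low counts. Farsa, a subunit of the phenylalanyl enzyme, had 0.57 ± 0.22 at an adjusted p of 0.0638, while its partner subunit Farsb rose by 1.00 ± 0.22 at 0.00608. With the GC trend removed Farsa passed the test at 0.56, adjusted p 0.0164. Vars, for valine (chromosome 17, 35000987 to 35016322), had the smallest change of the cytosolic set. It was at 252, 137 and 224 CPM in resting *wt*, Eμ-deficient and 3′RR-deficient cells and at 162, 221 and 393 CPM after LPS, so the groups overlapped. The *wt* pair went down and the other pairs up, and the fitted log2 fold change was 0.30 ± 0.33, adjusted p 0.497. Vars has a transcript GC content of 60.9%, the highest of the members, and with the GC trend removed its change was 0.50 at an adjusted p of 0.0784.

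**Figure D2:**
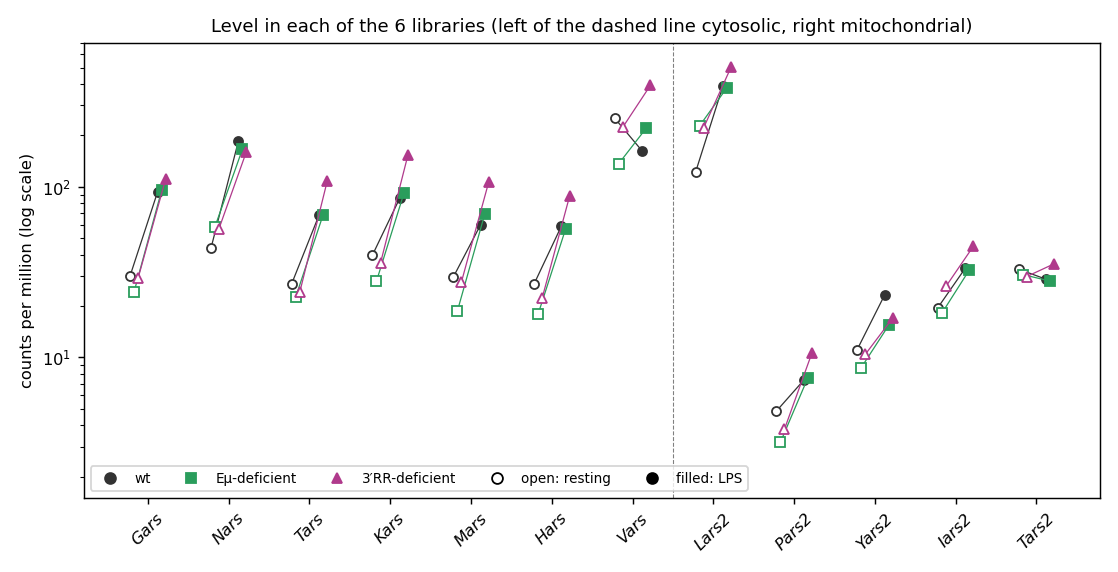
CPM on a log scale in each of the 6 libraries for the named members, with a line joining the resting (open) and LPS (filled) library of each genotype. For Gars the resting libraries lie at 24.3 to 30.1 and the LPS libraries at 93.3 to 111, whereas for Tars2 both states lie between 28.0 and 35.4. Heights of different genes also reflect transcript length.

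Lars2, the mitochondrial leucyl enzyme (chromosome 9, 123366927 to 123462666), was at 122, 228 and 222 CPM in resting *wt*, Eμ-deficient and 3′RR-deficient cells and at 392, 382 and 504 CPM after LPS. The resting *wt* library was lowest, and the groups did not overlap. Its log2 fold change was 1.21 ± 0.28, adjusted p 0.00899. Pars2, the mitochondrial prolyl enzyme (chromosome 4, 106651069 to 106655282), was low throughout, at 4.84, 3.18 and 3.79 CPM at rest and 7.36, 7.59 and 10.6 CPM after LPS. It rose by 1.10 ± 0.31 on the log2 scale, adjusted p 0.0192, in 3 of 3 genotypes. Yars2, for tyrosine, went from 11.1, 8.70 and 10.4 CPM to 23.2, 15.4 and 17 CPM, with a log2 fold change of 0.87 ± 0.24 and an adjusted p of 0.0188. Iars2, for isoleucine, went from 19.6, 18.2 and 26.1 CPM to 33.4, 32.6 and 44.9 CPM, with a log2 fold change of 0.80 ± 0.22 and an adjusted p of 0.0171. All 4 genes, and Rars2 for arginine (0.78 ± 0.25, adjusted p 0.0317), had every LPS library above every resting one. The calls of Pars2, Yars2, Iars2 and Rars2 were lost without any 1 of the 4 Eμ-deficient and 3′RR-deficient libraries, and all 5 with spike-in scaling.

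The other 10 mitochondrial members did not pass the test, with log2 fold changes from 0.56 for Sars2 to -0.63 for Ears2. Tars2, the mitochondrial threonyl enzyme, had the smallest change at -0.03 ± 0.22, adjusted p 0.931. It was at 32.9, 30.6 and 29.8 CPM in the resting libraries and 28.7, 28.0 and 35.4 CPM after LPS, so the states overlapped. Ears2, the mitochondrial glutamyl enzyme, was at 16.4, 14.7 and 9.62 CPM at rest and at 10.1, 7.31 and 8.42 CPM after LPS. Its log2 fold change of -0.63 ± 0.27 had an adjusted p of 0.0911 and passed the threshold at 0.0468 with the GC trend removed. The groups overlapped through the 3′RR-deficient resting and *wt* LPS libraries. Negative values that did not pass the test were also fitted for Hars2 (-0.31), Wars2 (-0.28), Nars2 (-0.25) and Fars2 (-0.24). Sars2 (transcript GC content 60.1%) passed with the GC trend removed, at 0.77 and an adjusted p of 0.0154.

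Of all 35 members, 24 had every LPS library above every resting library, 19 cytosolic and 5 mitochondrial, against 25.0% of all genes tested. Within single genotypes the median log2 ratio of cytosolic members was 1.07 in *wt*, 1.44 in Eμ-deficient and 1.41 in 3′RR-deficient cells. For mitochondrial members it was -0.07, 0.33 and 0.63, and for all genes -0.05, 0.01 and -0.07. With the GC trend removed the mitochondrial medians were 0.12, 0.28 and 0.61. In *wt* cells 19 of 20 cytosolic members had a ratio above 0, Vars being the exception, as against 20 of 20 in each mutant. Mitochondrial members above 0 numbered 7, 9 and 11 of 15. These are ratios of 1 library to another, and whether the genotypes differed in them was not tested.

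A direct comparison of compartments was made between genes for the same amino acid. It held 16 pairs, in which Eprs, the bifunctional glutamyl-prolyl enzyme, and Fars2 each stood in 2. The fitted change of the cytosolic gene was above that of its mitochondrial counterpart in 16 of 16 pairs, by a median of 0.76 on the log2 scale. With the GC trend removed it was above in 15 of 16 pairs, by the same median, the exception being Sars and Sars2 (-0.10). The cytosolic-to-mitochondrial ratio of CPM per kb was higher after LPS in all 3 genotypes in 11 pairs (12 with the GC trend removed), and in 10 pairs the 3 LPS ratios all lay above the 3 resting ratios. For asparagine the Nars to Nars2 ratio was 8.79, 5.36 and 9.89 in resting *wt*, Eμ-deficient and 3′RR-deficient cells and 30.9, 31.1 and 28.3 after LPS. For histidine the Hars to Hars2 ratio went from 2.38, 1.81 and 2.09 to 5.92, 6.08 and 13.2. Hars and Hars2 lie head to head on opposite strands with overlapping ends, and the library kit keeps strand. For glutamate the Eprs to Ears2 ratio went from 1.58, 1.53 and 2.73 to 5.66, 7.18 and 7.02, and for threonine the Tars to Tars2 ratio from 0.963, 0.867 and 0.949 to 2.81, 2.88 and 3.59. In these 4 pairs the cytosolic gene passed the test for LPS and the mitochondrial one did not. The remaining 5 pairs did not share the direction in all genotypes. Among them Eprs and Pars2 differed by 0.07 between their fitted changes, Sars and Sars2 by 0.07, and the Lars to Lars2 ratio was 0.690, 0.390 and 0.440 at rest and 0.618, 0.694 and 0.553 after LPS.

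**Figure D3:**
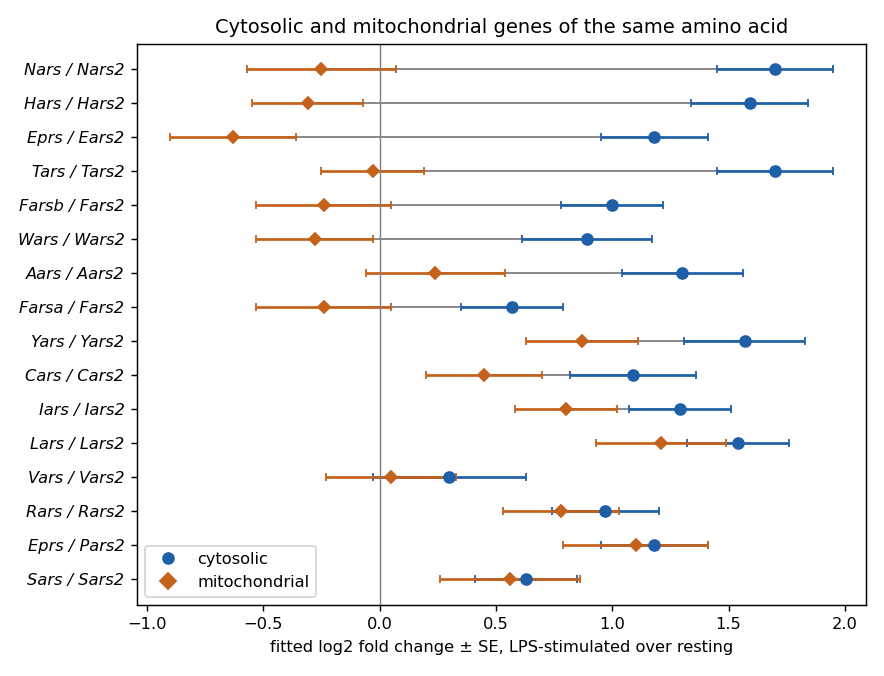
Fitted log2 fold change from resting to LPS, with its SE, for the cytosolic and the mitochondrial gene of each amino acid, ordered by the difference. The cytosolic value lies to the right in all 16 pairs, from Nars and Nars2 (difference 1.95) at the top to the pairs with Eprs and Pars2 or Sars and Sars2 (0.07) at the foot.

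Levels were also taken per kb of merged exons, a length that counts every annotated exon and can exceed that of the transcripts made. Ranks of genes on this scale are therefore rough. Vars had the highest cytosolic level in 5 of 6 libraries, at 24.4 to 70.1 CPM per kb. In the *wt* LPS library Nars was highest at 42.4 CPM per kb. Cars, the cysteinyl gene, was lowest of the cytosolic set in all 6 libraries, at 2.33 to 8.04 CPM per kb. Among mitochondrial genes Lars2 was highest in every library, at 11 to 45.5 CPM per kb, while the next highest, Tars2 or Rars2, reached 4.42 to 8.56. The lowest mitochondrial level was that of Nars2, Pars2 or Fars2, at 1.03 to 1.31 CPM per kb. The median cytosolic level was 6.88 to 8.53 CPM per kb at rest and 18.2 to 21.6 after LPS, and the median mitochondrial level 2.4 to 2.66 and 2.38 to 3.94. Lars2 shared 22 of its 11217 words of 50 bases with transcripts of other genes (0.196%). Aars shared 13.5% with Exosc6 and Iars 7.15% with Gm4849, and reads from such stretches may not be assignable to a single gene. The words compared were those of transcripts, and whether ribosomal RNA reads were counted in Lars2 was not tested. The ribosomal RNA entry Rn18s-rs5 was at 146000, 170000 and 171000 CPM in resting *wt*, Eμ-deficient and 3′RR-deficient cells. After LPS it was at 202000, 183000 and 199000 CPM (0.27 ± 0.34, adjusted p 0.558). Gm42418, another ribosomal RNA entry, rose from 5000, 4440 and 6010 to 8650, 8080 and 10800 CPM (0.84 ± 0.30, adjusted p 0.0483). The mitochondrial entries mt-Rnr1 (-0.49 ± 0.47) and mt-Rnr2 (-0.33 ± 0.53) did not pass the test.

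The 8 members of the multisynthetase complex (Eprs, Iars, Lars, Mars, Qars, Rars, Kars and Dars) all rose, with a median log2 fold change of 1.38, from 0.80 for Qars to 1.64 for Kars. With spike-in scaling 4 of the 8 were called, not Eprs (adjusted p 0.0938), Iars (0.057), Rars (0.191) or Qars (0.333), and Qars was not called with total count scaling (0.0644) or without any 1 of the Eμ-deficient and 3′RR-deficient libraries. Without the resting Eμ-deficient library 5 of the 8 were called. Of the 12 cytosolic members outside it 10 rose, with a median of 1.19. The 3 scaffold genes of the complex rose as well. Aimp2 went from 6.33, 4.99 and 6.27 CPM to 20.4, 18.3 and 34.9 CPM (log2 fold change 2.01 ± 0.27, adjusted p 0.000603). Eef1e1 rose by 1.82 ± 0.32 and Aimp1 by 1.17 ± 0.23. By structural class of the enzyme, 8 of 9 class I cytosolic members rose with a median of 1.09, and 9 of 10 class II members with a median of 1.53. Eprs, which joins both classes, was left out of this count. Alternatives aside, the shares called in these groups are to be read beside 19.7% of all genes called higher.

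Other genes of charging and translation were counted from lists. Of 12 other charging genes tested, 4 rose and 0 fell, with a median of 0.54. They included the tRNA exporter Xpot (1.23 ± 0.22, adjusted p 0.00229) and the CCA-adding enzyme Trnt1 (1.14 ± 0.26, adjusted p 0.00739). Aarsd1, an alanyl editing factor, had 1.16 ± 0.43 and did not pass (adjusted p 0.0554). Of 10 genes of cytosolic elongation and termination 8 rose, with a median of 1.37, led by Eif5a (2.13 ± 0.27, adjusted p 0.000467), while Eef1a1, which delivers charged tRNA to the ribosome, had 0.47 ± 0.31 (adjusted p 0.252). Of 9 mitochondrial translation factors 4 rose, with a median of 0.84. These were the elongation factors Tufm (2.06 ± 0.26), Tsfm (1.68 ± 0.25) and Gfm1 (1.28 ± 0.22), and the recycling factor Mrrf (0.92 ± 0.27). The share of each list is to be read against 19.7% of all genes called higher.

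Of 24 tested genes of the amino acid and integrated stress response, 11 rose and 7 fell, with a median of 0.53, beside 19.7% and 21.1% of all genes. Atf4 itself was at 251, 196 and 230 CPM in resting *wt*, Eμ-deficient and 3′RR-deficient cells and at 160, 145 and 192 CPM after LPS, a log2 fold change of -0.45 ± 0.24 (adjusted p 0.165). Among its known targets, Asns, the asparagine synthetase, rose from 4.73, 9.69 and 0.923 CPM to 23.9, 37.2 and 21.9 CPM (2.80 ± 0.46, adjusted p 0.00163), whereas Ddit3, which encodes the stress factor CHOP, fell from 45.3, 57.1 and 67.1 CPM to 4.59, 9.18 and 8.65 CPM (-2.96 ± 0.25, adjusted p 9.63e-05). The greatest rises were those of Chac1, a glutathione-degrading enzyme (3.96 ± 0.46), and Psat1 of serine synthesis (3.62 ± 0.26). The greatest falls were those of the stress factor Atf3 (-4.19 ± 0.28) and of the phosphatase subunit Ppp1r15a (-4.10 ± 0.28). Other members that rose included Phgdh, Psph, Shmt2 and Mthfd2 of serine and folate metabolism (2.06 to 2.78), the transcription factor Atf5 (1.93 ± 0.32, adjusted p 0.00176) and the pseudokinase Trib3 (1.80 ± 0.62, adjusted p 0.0444).

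The other comparisons asked whether deletion of an enhancer changed the synthetase genes. In each of the 3 genotype contrasts, fitted over both states, 0 of the 35 members were called by edgeR and 0 by DESeq2, and 0 had an unadjusted p under 0.05. Of all genes tested, 1.16% were called between Eμ-deficient and *wt*, 0.678% between 3′RR-deficient and *wt*, and 1.3% between Eμ-deficient and 3′RR-deficient. The contrasts share libraries, and each genotype had 1 library per state. The lowest adjusted p of a member was 0.850, 0.914 and 0.404. The median log2 fold change over the 35 members was -0.14, 0.15 and -0.30, beside -0.01, 0.04 and 0.01 for all genes. Without the resting *wt* library Vars was called in 3′RR-deficient against *wt* cells (1.25, adjusted p 0.0169) and in Eμ-deficient against 3′RR-deficient cells (-0.80, adjusted p 0.0281). Without the *wt* LPS library Vars (-0.77, adjusted p 0.027) and Vars2 (-0.74, adjusted p 0.0415) were called in the latter contrast.

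In Eμ-deficient against *wt* cells 12 members had the same sign in both states. Among these Wars2, the mitochondrial tryptophanyl gene, had the largest positive value, with 10.5 CPM in *wt* and 15.2 in Eμ-deficient cells at rest and 8.75 and 12 after LPS (0.49 ± 0.30, adjusted p 0.850). Yars2 had the largest negative value, with 11.1 against 8.70 CPM at rest and 23.2 against 15.4 after LPS (-0.48 ± 0.29, adjusted p 0.852). In 3′RR-deficient against *wt* cells, where 12 members also kept their sign, these were Lars2 (122 against 222 CPM at rest and 392 against 504 after LPS, 0.60 ± 0.34, adjusted p 0.914) and Ears2 (16.4 against 9.62 and 10.1 against 8.42, -0.52 ± 0.33, adjusted p 0.914). The resting difference of Lars2 from *wt* was of like size in Eμ-deficient cells, at a log2 ratio to *wt* of 0.91 (95% interval of the counts 0.83 to 0.99) beside 0.87 (0.79 to 0.94) in 3′RR-deficient cells. In Eμ-deficient against 3′RR-deficient cells 28 members kept their sign. Wars2 had the largest positive value (0.63 ± 0.31, adjusted p 0.432) and Vars the largest negative one, with 137 against 224 CPM at rest and 221 against 393 after LPS (-0.78 ± 0.40, adjusted p 0.447, and -0.31 with the GC trend removed).

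Within a state the values are ratios of single libraries. At rest the median log2 ratio to *wt* of cytosolic members was -0.37 in Eμ-deficient and -0.03 in 3′RR-deficient cells, and after LPS 0.03 and 0.46. Mitochondrial members gave -0.16 and -0.09 at rest and -0.03 and 0.37 after LPS. All genes tested gave 0.03 and 0.02 at rest and 0.0 and 0.07 after LPS. With the GC trend removed the values in 3′RR-deficient LPS cells were 0.30 for cytosolic and 0.15 for mitochondrial members. In that library 17 of 20 cytosolic members stood above *wt* LPS, beside 7660 of all 14600 genes tested. Kars was among these members, at a log2 ratio of 0.83 (95% interval 0.73 to 0.94), which was 0.90 with the GC trend removed. Nars went the other way at -0.20 (-0.29 to -0.11). In resting Eμ-deficient cells 4 of 20 cytosolic members stood above *wt*, beside 7569 of all 14600 genes tested. Of the cytosolic members Vars was farthest below *wt* at -0.88 (-0.95 to -0.80), or -0.36 with the GC trend removed. Intervals cover counting error only, and with 1 library a group no test between genotypes within a state was possible. The summed erythroid marker level was 20200 CPM in the resting Eμ-deficient library against 3410 and 3930 in the other resting ones, and its part in the resting ratios was not tested.

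**Figure D4:**
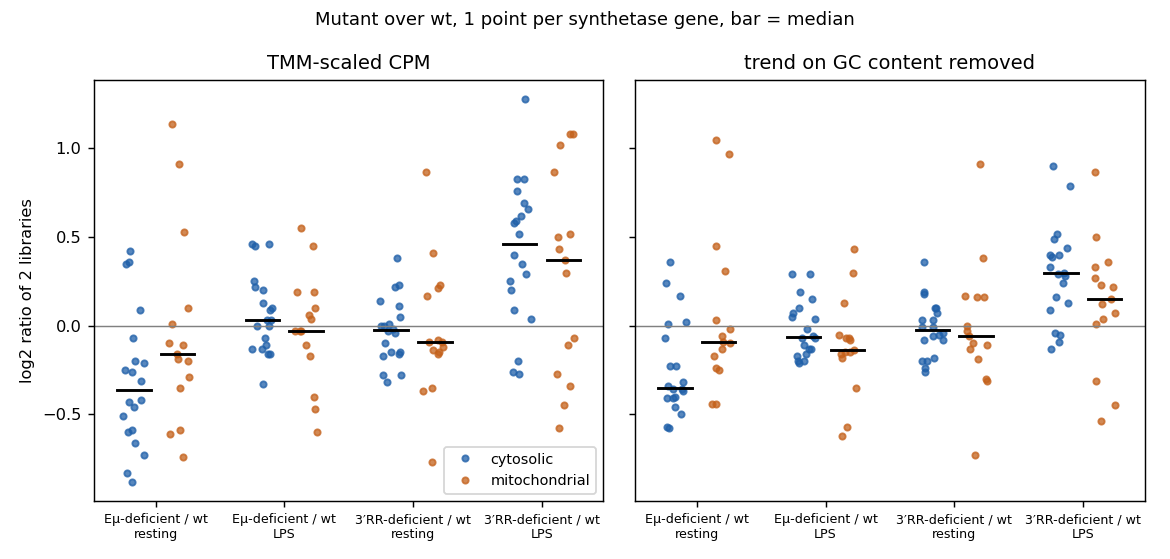
Log2 ratio of a mutant library over the *wt* library of the same state, 1 point per synthetase gene and a bar at the median, as scaled CPM on the left and with the GC trend removed on the right. The cytosolic median is -0.37 in resting Eμ-deficient cells and 0.46 in 3′RR-deficient LPS cells on the left, and the latter is 0.30 on the right.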

How the data were processed

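RNA-seq was done on total RNA of CD43- spleen cells with a strand-keeping kit. The authors aligned reads with STAR 2.4.0a to mm10 and deposited raw read counts per gene from featureCounts (Subread 1.4.6-p1), in whole numbers, with 92 spike-in RNAs (4.75 to 7.10% of counts), which were left out of library sizes. The study's methods give Ensembl release 77 as the gene models. Coordinates, transcript GC content and lengths were taken by gene name from GENCODE M21 (GRCm38).

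Testing covered genes that reached 10 counts in 2 or more libraries, and was done with edgeR 4.0.16 (R 4.3.3), TMM scaling, quasi-likelihood F test, genotype and state as additive terms, 2 residual degrees of freedom, Benjamini-Hochberg adjustment over 14600 genes and a threshold of 0.05. On simulated data for LPS against resting (14247 genes), 83.7% of genes changed by 1 on the log2 scale and 96.2% of those changed by 2 were recovered, with 2.72% false calls. The simulated counts had 200 changed genes, the same dispersion for every gene, no genotype effect and no GC trend. These shares therefore need not hold for the real libraries. CPM were TMM-scaled. Ratios of 2 libraries carry an exact conditional binomial 95% interval, for counting error only. The GC trend was removed by a lowess fit (span 0.3) on each library, entered as offsets.

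The members and all gene lists were chosen with earlier results of these data known. Members given in full were the 6 cytosolic and 4 mitochondrial genes with the largest LPS change, the smallest of each compartment, any called lower or between genotypes, and the largest rise and fall of each genotype contrast among members with one sign in both states. Aars2, Ears2, Farsa, Farsb, Rars2, Sars, Sars2 and Vars2 were named in addition after their values were seen. Alternatives were other scalings, DESeq2 1.42.0, other filters, GC removal, no genotype block and libraries left out.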

Additional observations from a re-analysis of the deposited data

Results flagged for a closer look

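In 4 members the LPS ratio of the *wt* pair of libraries had the opposite sign to that of a mutant pair with both 95% counting intervals clear of 0. Each rests on 1 library per group and state, and the difference was not tested. For Vars the log2 ratio of LPS over resting was -0.63 in *wt*, 0.69 in Eμ-deficient and 0.81 in 3′RR-deficient cells, differences of 1.32 and 1.44. With the GC trend removed the values were 0.12, 0.67 and 0.72, all above 0. For Aars2, the mitochondrial alanyl gene, the ratios were -0.46, 0.47 and 0.72, differences of 0.93 and 1.18, and with the GC trend removed 0.28, 0.45 and 0.61. For Vars2, the mitochondrial valyl gene, *wt* and 3′RR-deficient cells gave -0.57 and 0.63, a difference of 1.20, and 0.12 and 0.51 with the GC trend removed. For Tars2 they gave -0.20 and 0.25, a difference of 0.45, and -0.01 and 0.15 with the GC trend removed. The sign also differed in Sars2 (-0.07 in *wt*, 0.67 in Eμ-deficient and 1.10 in 3′RR-deficient cells), Nars2 (0.27, -1.03 and -0.01) and Fars2 (-0.65, -0.26 and 0.22), where an interval of the *wt* or the mutant pair included 0. Transcript GC content was 60.9% in Vars, 60.0% in Aars2, 58.6% in Vars2 and 51.1% in Tars2, beside a median of 49.0% for all genes tested.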

How the results depend on the processing

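The 18 cytosolic and 5 mitochondrial LPS calls had the same counts with DESeq2's size factors, with the DESeq2 test and without the genotype block. Spike-in scaling gave 9 members called in all, 9 cytosolic and 0 mitochondrial, with the median of all genes at -0.28, of cytosolic members at 1.09 and of mitochondrial members at 0.05. Total count scaling put these medians at -0.16, 1.20 and 0.15 and the share of higher calls among all calls at 43.1%, against 48.4%, and spike-in scaling at 33.4%. GC removal gave 1 member called lower, a median of -0.06 for cytosolic members in Eμ-deficient over *wt* LPS and of 0.12 for mitochondrial members in *wt* LPS over resting, both of the opposite sign to the values reported. Leaving out 1 library or both of a genotype, with a lone library assumed to vary like the others, gave 12 to 27 members called after LPS, 11 to 20 cytosolic and 1 to 7 mitochondrial, 0 to 1 called in 3′RR-deficient against *wt* and 0 to 2 in Eμ-deficient against 3′RR-deficient cells. Fewer libraries enter those fits, and a genotype left with 1 library adds nothing to the fitted LPS change. Leaving out either or both libraries of a genotype is therefore nearly the same check of the LPS calls. Calls of members fell without an Eμ-deficient or 3′RR-deficient library and rose without a *wt* one. Calls over all genes moved the same way, from 5962 of 14600 with all libraries. They numbered 3960 of 14132 without both Eμ-deficient, 4771 of 14051 without both 3′RR-deficient and 6655 of 13888 without both *wt* libraries. The cause was not tested. Over the same fits with libraries left out, the median LPS change ranged from 1.21 to 1.41 for cytosolic and from -0.02 (without 3′RR-deficient libraries) to 0.62 (without *wt* libraries) for mitochondrial members, and their difference from 0.78 to 1.23. Without Lars2, chosen after seeing the data, the mitochondrial median was 0.15. Among members that did not pass, leaving libraries out moved the LPS change of Aars2 from -0.02 to 0.62, Nars2 from -0.52 to 0.22, Tars2 from -0.18 to 0.12, Vars2 from -0.26 to 0.40 and Fars2 from -0.48 to 0.00. Vars2 was -0.04 with total count scaling, -0.15 with spike-in scaling and -0.02 with the stricter filter, and Tars2 0.00 without a filter. The depth was at least 42 counts for a member in a library. The genotype block of the test already treats the resting and LPS library of a genotype as paired.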
